A study of Mus musculus with 16 samples.

Results

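Macrophages of the peritoneal cavity were compared with macrophages of the heart in C57BL/6 mice 8 weeks of age, under baseline conditions. The peritoneal group was sorted by flow cytometry from peritoneal lavage and the heart group from heart tissue, with 4 RNA sequencing libraries in each, numbered 2 to 5. The labels name no transgene, mutant allele or treatment in either group. Libraries from the pericardial and pleural cavities, 4 of each, entered the same fit and are used here only to show where peritoneal cells differ from other cavity cells. The genes compared were those with an RPKM (reads per kilobase of transcript, divided by sequencing depth) of at least 1 in at least 4 of the 8 peritoneal and heart libraries, which left 10920 of 24981 genes. Of these, 324 passed the minimum through the peritoneal libraries alone and 429 through the heart libraries alone. Genes that passed through 1 group alone had to differ, so the count and median of a list that holds them describe its tested members and support nothing further. Just inside the minimum, by the RPKM of their library ranked 4 of 8, stood Art2a-ps (1.00119), Map2k3os (1.00075) and Pou2af1 (1.00032). Just outside stood Tm4sf5 (0.999), Atxn7l2 (0.999) and Ccdc149 (0.998).

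Alignments ranged from 41495264 to 56306606 in peritoneal and from 57029340 to 70166356 in heart libraries. The RPKM total was 424041, 433448, 272981 and 341453 in peritoneal and 227397, 242005, 295835 and 336952 in heart libraries 2 to 5, so the 2 groups differed in the total that all genes share. Correlations of log2 values across genes were 0.947 to 0.988 among peritoneal libraries, 0.962 to 0.985 among heart libraries and 0.716 to 0.780 between the groups. Genes are not independent replicates, and these correlations are descriptive. Whether each library came from its own animal is not stated in the labels, and p-values thus reflect only the scatter among these 8 libraries and the 8 that share the fit. Peritoneal cells came by lavage and heart cells from solid tissue, so population and harvest cannot be told apart in any comparison between these groups. In sorted bulk samples, fewer cells of a type and less RNA per cell cannot be told apart either.

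Resident macrophages take on the character of the tissue they live in. Large peritoneal macrophages float in the serous fluid and depend on the transcription factor Gata6, which is induced by retinoic acid and drives a programme of coagulation, matrix and lipid mediator genes. Cardiac macrophages sit between cardiomyocytes, fibroblasts and vessels, clear dying cells and debris, and are known for the hyaluronan receptor Lyve1, the mannose receptor Mrc1 and MHC class II.

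The 4 marker genes separated the groups in the direction of the labels. Gata6 stood at 41.8, 49.1, 28.8 and 44.3 RPKM in the peritoneal libraries and at 1.58, 0.381, 0.564 and 0.842 RPKM in the heart libraries. Icam2, an adhesion molecule of cavity macrophages (mm10 chr11:106377656-106388075, minus strand), stood at 425, 458, 276 and 338 RPKM in the peritoneal libraries and at 5.15, 3.61, 5.17 and 6.75 RPKM in the heart libraries. Arg1, arginase 1, which splits arginine into ornithine and urea (chr10:24915221-24927484, minus strand), stood at 172, 194, 163 and 138 RPKM in the peritoneal libraries and at 0.253, 0.238, 0.0891 and 0.260 RPKM in the heart libraries. For these 3 genes the lowest peritoneal library lay many times above the highest heart library. Arg1 passed the minimum through the peritoneal libraries alone, so its direction was fixed by the minimum. Lyve1 (chr7:110850607-110863239, minus strand) went the other way, at 31.2, 11.1, 11.6 and 17.2 RPKM in the peritoneal libraries and at 167, 193, 261 and 234 RPKM in the heart libraries. The groups did not overlap for any of the 4. On the log2(RPKM + 0.5) scale the differences between peritoneal and heart cells were 5.001 ± 0.22 (SE) for Gata6, 6.05 ± 0.20 for Icam2, 7.88 ± 0.20 for Arg1 and -3.66 ± 0.36 for Lyve1, with limma adjusted p of 1.2e-13, 8.99e-16, 5.84e-17 and 3.15e-08. This scale understates the change of genes that are low in a group.

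**Figure D1:**
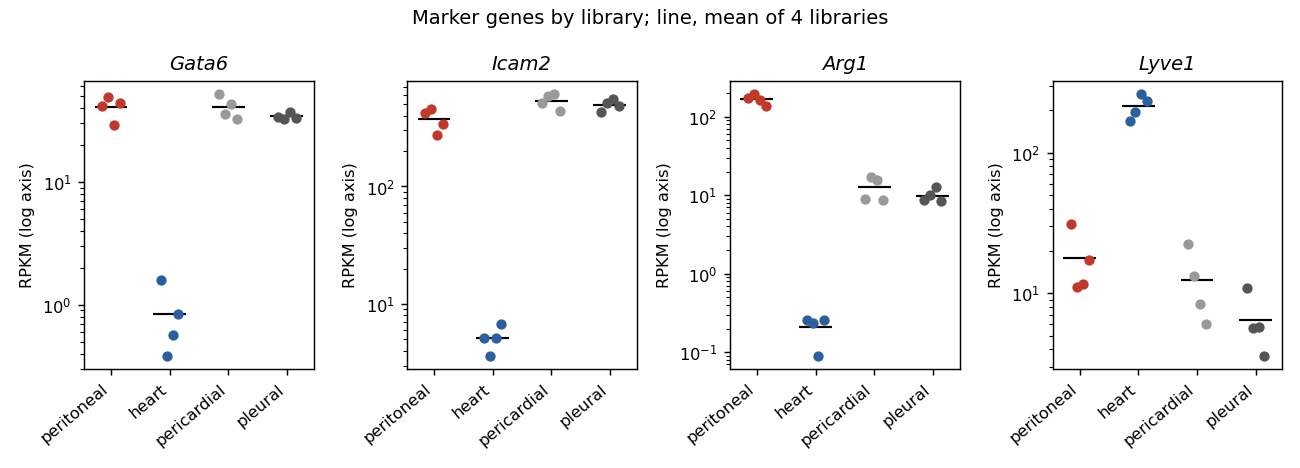
RPKM (log axis) of Gata6, Icam2, Arg1 and Lyve1 in each library, with 4 points and a line at the mean for each of the 4 populations. Gata6, Icam2 and Arg1 are far lower in heart than in peritoneal libraries and Lyve1 is higher, while Arg1 is also about 1 log10 unit lower in pericardial and pleural libraries.

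Across all genes tested, limma called 5354 higher (49.0%) and 1577 lower (14.4%) in peritoneal than in heart macrophages at an adjusted p under 0.05. The libraries did not overlap for 3325 genes with the peritoneal group higher and 1313 with the heart group higher. The split leaned on the scale: setting libraries to an equal RPKM total gave 3386 higher and 3061 lower, median-ratio scaling gave 4015 and 2670, and quantile normalization gave 4303 and 2740. The median log2 difference over all genes moved accordingly, from 0.38 on the deposited scale to 0.01, 0.10 and 0.11. A list median near 0.38 is therefore no more than that of all genes. Likewise, a list with a share near 49.0% higher or near 14.4% lower does no more than all genes do. Fewer genes changed by a large amount. A difference of at least 1 on the log2 scale was called for 1659 genes higher and 939 lower, and one of at least 5 for 46 higher and 76 lower.

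**Figure D2:**
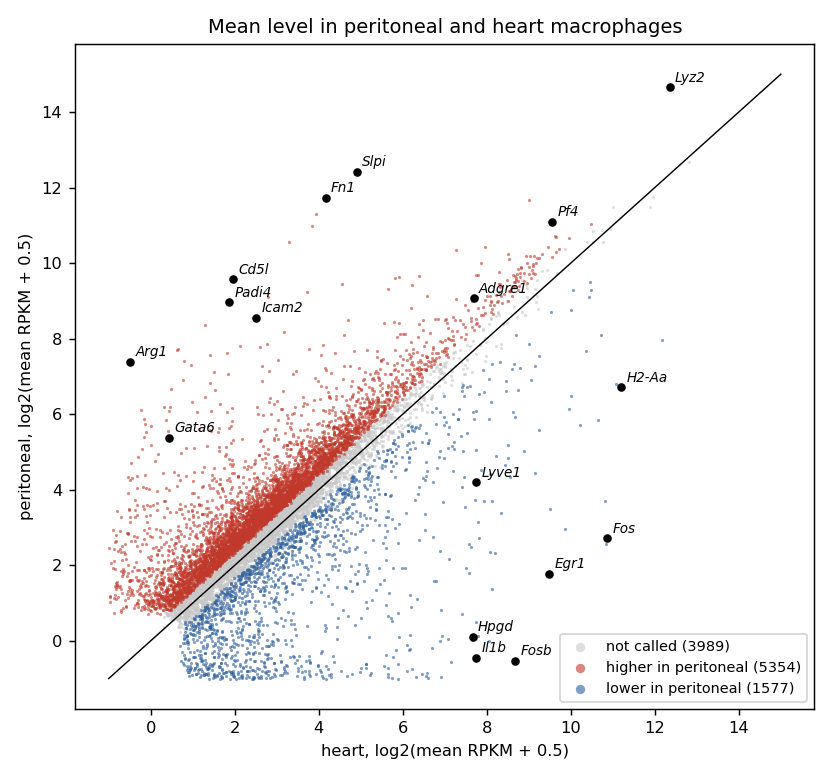
Mean RPKM of each of the 10920 genes in heart (horizontal) and peritoneal macrophages (vertical), both as log2(mean + 0.5), coloured by limma call, with the line of equal levels. Cavity genes such as Arg1, Cd5l and Slpi lie far above the line, and Fosb, Fos, Egr1, Il1b and Hpgd far below it.

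The genes of largest rise encode enzymes, secreted proteins and surface receptors. After Arg1 came Cd5l (7.60 ± 0.18), a soluble scavenger protein of tissue macrophages, fibronectin Fn1 (7.58 ± 0.22) and Slpi (7.51 ± 0.26), which inhibits leukocyte elastase. Fn1 stood at 3473, 3336, 2663 and 4106 RPKM in the peritoneal libraries and at 20.6, 12.9, 14.6 and 21.7 RPKM in the heart libraries. Slpi stood at 6891, 7061, 3256 and 4650.0 RPKM in the peritoneal libraries and at 33.2, 16.7, 28.1 and 39.97 RPKM in the heart libraries. Both groups were far apart, and peritoneal library 4 was the lowest of its group for each. Next stood the acute phase protein Saa3 (7.32), lubricin Prg4 (7.32), the 12/15-lipoxygenase Alox15 (7.16) and Padi4 (7.09), an enzyme that turns arginine residues of histones into citrulline. Coagulation factor V (F5, 7.08), the scavenger receptor Marco (7.05), the plasminogen activator inhibitor Serpinb2 (7.04) and P-selectin (Selp, 6.61) completed the 12. The 12 of largest fall were of other kinds. They included immediate early factors (Fosb -9.14, Fos -8.23 and Egr1 -7.68) and a heat shock protein (Hspa1a, -8.37). Cytokines and chemokines (Il1b -8.10, Ccl2 -8.04, Ccl7 -7.68 and Ccl4 -7.65) and muscle genes (Myl2 -7.84 and Mb -7.55) were also among them. The prostaglandin-degrading enzyme Hpgd (-7.52) and the surface protein Cd83 (-7.51) completed these 12. Genes that passed the minimum through the heart libraries alone included Fosb, Il1b, Ccl4, Myl2, Mb, Hpgd and Cd83. Their direction was fixed by the minimum, as was that of Arg1 among the rises.

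**Figure D3:**
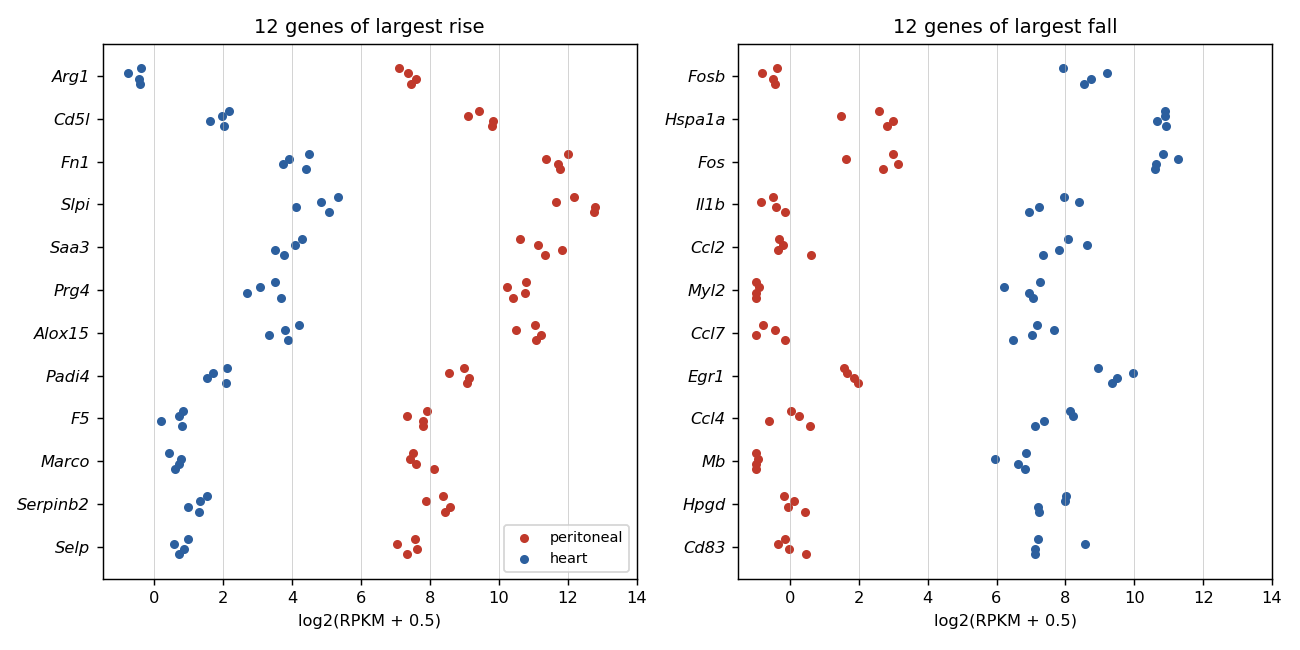
Levels as log2(RPKM + 0.5) of the 12 genes of largest rise (left) and the 12 of largest fall (right), with 1 point per library for peritoneal and heart macrophages. The 24 were chosen among genes whose peritoneal and heart libraries do not overlap. Heart library 4 stands above the other heart libraries for Cd83.

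Genes known from cavity macrophages were higher throughout. Of 34 tested, 34 rose and none fell, with a median log2 difference of 5.57 against 0.38 over all genes. For 9 of them the peritoneal libraries alone carried the gene over the minimum. The list was drawn from knowledge of such cells with earlier results of these data known, so its count is no independent support. Wnt2b, its remaining member, stayed below the minimum in both groups. Among macrophage transcription factors 9 of 39 were higher and 18 lower, against 7 and 26 to 27 under the 3 other scalings. Nfe2, better known from megakaryocytes and red cell precursors, stood at 35.7, 41.6, 24.3 and 30.6 RPKM in the peritoneal libraries and at 0.482, 0.310, 0.275 and 0.413 RPKM in the heart libraries. Bhlhe40, a repressor tied to macrophage self-renewal, rose by 4.01 and Klf10 by 1.56. The heart libraries were instead higher for Nr4a1 (-5.12), an orphan nuclear receptor that is also an immediate early gene, for Spic (-4.22), the factor of iron-recycling macrophages, and for Id3 (-3.86) and Klf4 (-3.63). Spic was at 0.260, 0.0972, 0.260 and 0.171 RPKM in the peritoneal libraries and at 9.87, 7.87, 17.5 and 17.4 RPKM in the heart libraries. The heart libraries alone carried 3 of the 39 over the minimum, Spic among them, and the peritoneal libraries alone carried 1, Nfe2. The direction of these genes was fixed by the minimum.

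Retinoic acid is the signal upstream of Gata6. Of 11 retinoid genes tested 7 rose and 2 fell, beside 49.0% higher and 14.4% lower over all genes. The peritoneal libraries alone carried 2 of the 11 over the minimum, Rarb among them, and the heart libraries alone carried 1, Aldh1a1. The direction of these genes was fixed by the minimum. The receptors Rarb and Rarg rose by 3.23 ± 0.16 and 1.72 ± 0.16. Rarb stood at 8.30, 10.6, 5.83 and 8.57 RPKM in the peritoneal libraries and at 0.533, 0.597, 0.227 and 0.390 RPKM in the heart libraries. Cyp26a1, which breaks retinoic acid down and is itself induced by it, rose by 3.26 ± 0.43, with peritoneal values of 4.23, 8.26, 10.8 and 3.37 RPKM that varied more than those of Rarb. Of the retinaldehyde dehydrogenases that make retinoic acid, Aldh1a2 rose by 2.16 while Aldh1a1 fell by 2.27 on the log2 scale, from 4.38, 1.27, 1.40 and 2.37 RPKM in heart libraries to at most 0.0770 in peritoneal ones.

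Arginine metabolism showed a change in few steps. Alongside Arg1, the arginine transporters Slc7a2 (3.57 ± 0.14) and Slc7a1 (1.51 ± 0.15) and spermidine synthase Srm (2.16 ± 0.19) rose. Slc7a2 stood at 18.9, 19.5, 15.1 and 20.3 RPKM in the peritoneal libraries and at 1.48, 1.18, 0.892 and 0.872 RPKM in the heart libraries. Enzymes that break polyamines down or acetylate them fell: Sat1 (-1.59), Smox (-1.505) and Paox (-1.200). Odc1, which makes putrescine from ornithine, stood at 21.8, 19.9, 12.4 and 16.4 RPKM in the peritoneal libraries and at 17.3, 13.3, 22.1 and 17.5 RPKM in the heart libraries, with overlapping groups (-0.01 ± 0.19, adjusted p = 0.98). In all 5 of 17 rose and 5 fell, and 1 of the 17, Arg1, passed the minimum through the peritoneal libraries alone. The list median of 0.26 lay below that of all genes and turned to -0.12 at an equal RPKM total, -0.03 with median-ratio scaling and about 0 (-0.005) with quantile normalization.

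Coagulation genes moved in both directions. The procoagulant factors F5, F7 and F10 rose by 7.08, 6.35 and 5.11, and Serpinb2 by 7.04. F10 stood at 238, 277, 182 and 231 RPKM in the peritoneal libraries and at 8.66, 7.09, 4.31 and 5.39 RPKM in the heart libraries. Heart cells held more of the transglutaminase subunit F13a1 (-2.64), which crosslinks fibrin, and of Gas6 (-6.92), a vitamin K-dependent ligand of TAM receptors. Gas6 stood at 2.85, 0.704, 0.422 and 0.561 RPKM in the peritoneal libraries and at 160.1, 156, 193 and 175 RPKM in the heart libraries, and peritoneal library 2 was the highest of its group. Of the 17 genes tested, 1 passed the minimum through the peritoneal libraries alone and 1 through the heart libraries alone. The list had 8 of 17 higher, near the 49.0% of all genes, and 6 lower, against 14.4% of all genes. Under each of the 3 other scalings 9 were lower.

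Matrix genes were split as well. Fn1, Prg4, the adhesive glycoprotein Thbs1 (6.32) and Ltbp1 (6.14), which stores latent TGF-beta in the matrix, were among 12 of 26 that rose. Tgfb2 itself rose by 5.65 ± 0.21. Of the 26, 6 passed the minimum through the heart libraries alone and 2, Tgfb2 among them, through the peritoneal libraries alone. The direction of these genes was fixed by the minimum. Tgfb2 stood at 49.3, 56.4, 37.8 and 59.1 RPKM in the peritoneal libraries and at 0.633, 0.458, 0.531 and 0.399 RPKM in the heart libraries. Of the 11 that fell, Sparc (-4.64), Ltbp4 (-3.58) and Nid1 (-1.86) encode matrix proteins that stromal cells make. In heart libraries 2 to 5 Sparc stood at 43.2, 8.86, 10.4 and 10.1 RPKM and Ltbp4 at 26.9, 6.51, 4.77 and 4.50 RPKM, so heart library 2 was well above the other 3. The same library had the highest summed level of 13 fibroblast markers, 745 RPKM against 194 to 243 in the other heart libraries and at most 1.35 in peritoneal ones. Timp3 (14.2, 3.95, 2.74 and 3.59 RPKM), Serping1 (25.8, 7.93, 7.35 and 7.54 RPKM) and clusterin Clu (6.75, 1.55, 1.40 and 1.32 RPKM) had the same heart library on top. The part of fibroblast RNA in these falls was not tested. The median of the matrix list was 0.28 and passed below 0 under the 3 other scalings (-0.13 at an equal RPKM total, -0.04 median-ratio, -0.12 quantile).

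The metalloproteinase list had 5 of 15 higher and 8 lower. Adam8, a sheddase of leukocytes, rose by 4.65 ± 0.16, with 75.7, 72.8, 50.7 and 72.4 RPKM in peritoneal and 1.78, 2.31, 2.22 and 2.51 RPKM in heart libraries. The collagenase Mmp13 was at 0.00878, 0.0307, 0.0512 and 0.0347 RPKM in the peritoneal libraries and at 28.4, 28.4, 54.0 and 37.4 RPKM in the heart libraries. The elastase Mmp12 (-3.86) and the sheddase Adam19 (-4.35) also fell. For 7 of the 15 the heart libraries alone carried the gene over the minimum.

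Adhesion molecules had a list median of 1.71, with 16 of 29 higher and 8 lower, beside 49.0% and 14.4% of all genes. Of the 29, 3 passed the minimum through the heart libraries alone and 1 through the peritoneal libraries alone. Selp, stored by platelets and endothelium for leukocyte rolling, was at 161, 196, 132 and 189.5 RPKM in the peritoneal libraries and at 1.15, 1.30, 0.978 and 1.48 RPKM in the heart libraries. Cd24a (5.61) and the laminin receptor subunit Itga6 (5.01) rose as well. The heart group was higher for Itgb5 (-6.25), an integrin subunit used in engulfment, for Vcam1 (-4.61) and for Icam1 (-3.16). Icam1 is induced by inflammatory signals, and its highest heart value was again in library 4, 53.9, 40.8, 103 and 35.5 RPKM across heart libraries 2 to 5. Both chains of complement receptor 3 rose, Itgam by 3.78 and Itgb2 by 3.27, while the alternative partner Itgax fell by 3.08 on the log2 scale.

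Complement genes outside the receptor also moved in both directions. C4b (3.67 ± 0.23) and factor B (Cfb, 3.51 ± 0.33) rose and C2 (-2.89 ± 0.18), the partner of C4 in the classical convertase, fell. Cfb stood at 64.0, 144, 53.6 and 57.0 RPKM in the peritoneal libraries and at 5.0, 12.01, 4.45 and 4.48 RPKM in the heart libraries, with library 3 the highest of each group. C1qa, which recognises immune complexes and dying cells, stood at 2437, 2285, 1261 and 1657 RPKM in the peritoneal libraries and at 1555, 1769, 1829 and 2621 RPKM in the heart libraries, and its groups overlapped (-0.04 ± 0.24). Of the 24 tested, 5 passed through the heart libraries alone. The list had 10 of 24 higher and 8 lower, beside 49.0% and 14.4% of all genes. Its median of 0.24 fell below 0 at an equal RPKM total (-0.12) and with median-ratio scaling (-0.03).

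Secreted host defence proteins were higher for 17 of 18 tested and lower for 1, with a median of 2.56. For 6 of them the peritoneal libraries alone carried the gene over the minimum. Haptoglobin (Hp) binds free haemoglobin and stood at 63.5, 88.0, 67.7 and 72.2 RPKM in the peritoneal libraries and at 0.778, 0.664, 0.587 and 0.933 RPKM in the heart libraries. Proteinase 3 (Prtn3), a granule protease of neutrophils and monocytes, stood at 44.0, 87.9, 38.3 and 41.5 RPKM in the peritoneal libraries and at 0.642, 0.112, 0.294 and 0.581 RPKM in the heart libraries. The groups lay apart for both, and Prtn3 was highest in peritoneal library 3. Ear2, a ribonuclease of the eosinophil family, was the 1 member that fell (-2.95). Of the neutrophil markers, Mpo (mean RPKM of 0.0236 and 0.0589 in peritoneal and heart cells), Elane (0.169 and 0.0306) and Ltf (0.0204 and 0.0328) were near 0. S100a8 (2.48 ± 0.25) and Csf3r (1.67 ± 0.14) from the same list rose. The 12 listed summed to 44.6 to 71.1 RPKM in peritoneal and 20.6 to 49.8 RPKM in heart libraries. The part of neutrophil RNA was not tested.

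Lipid mediator genes gave another split. Alox15, which makes precursors of lipoxins and other oxygenated lipids, stood at 2150.1, 2379, 1444 and 2122 RPKM in the peritoneal libraries and at 14.2, 9.50, 13.4 and 17.9 RPKM in the heart libraries. Prostacyclin synthase Ptgis (5.87 ± 0.30), the prostacyclin receptor Ptgir (3.35 ± 0.18) and prostaglandin E synthase Ptges (2.90 ± 0.18) rose. Cyclooxygenase 2 (Ptgs2), which feeds these enzymes, fell, from 8.59, 6.14, 12.5 and 5.79 RPKM in heart libraries to at most 0.0982 in peritoneal ones. Hpgd, which inactivates prostaglandins, stood at 0.847, 0.465, 0.589 and 0.396 RPKM in the peritoneal libraries and at 149, 145, 256 and 259 RPKM in the heart libraries. The prostaglandin D synthase Hpgds (-4.14) and the carbonyl reductase Cbr2 (-4.88) fell too. Hpgd and Ptgs2, the 2 of the 25 that passed the minimum through the heart libraries alone, had their direction fixed by it. The peritoneal libraries alone carried 1 gene over the minimum. The list had 12 of 25 higher and 8 lower, beside 49.0% and 14.4% of all genes. Its median of 0.33 turned to -0.08 at an equal RPKM total and -0.07 with quantile normalization.

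Fatty acid binding proteins rose together apart from 1. Fabp7 stood at 197, 177, 120.4 and 134 RPKM in the peritoneal libraries and at 1.08, 0.924, 0.978 and 2.79 RPKM in the heart libraries, and Fabp4 and Fabp5 rose by 5.54 ± 0.23 and 4.63 ± 0.21. The muscle form Fabp3 was lower, at 5.60, 3.43, 2.81 and 3.89 RPKM in the peritoneal libraries and at 52.9, 51.9, 29.0 and 59.1 RPKM in the heart libraries. Its lowest heart value was in library 4, the heart library in which Myl2 (134, 122, 73.8 and 152 RPKM) and Mb (114, 98.0, 61.1 and 116 RPKM) were also lowest; the part of cardiomyocyte RNA was not tested. In all 15 of 29 lipid uptake and carriage genes rose and 5 fell, near the 49.0% and 14.4% of all genes. Under the 3 other scalings 14 to 15 were higher and 9 to 10 lower. Cholesterol synthesis did not keep its balance: 7 of 24 were higher and 1 lower on the deposited scale, whereas an equal RPKM total gave 3 higher and 6 lower. Mvd, the mevalonate decarboxylase, rose by 2.07 ± 0.16.

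Genes known from cardiac macrophages were lower in peritoneal cells for 19 of 25 tested and higher for 3, with a median of -2.62. Mrc1 stood at 10.6, 3.39, 1.74 and 2.87 RPKM in the peritoneal libraries and at 227, 226, 358 and 272 RPKM in the heart libraries. Folr2, a folate receptor of perivascular macrophages, stood at 30.6, 4.11, 2.26 and 2.60 RPKM in the peritoneal libraries and at 274, 280.0, 357 and 378 RPKM in the heart libraries. The haemoglobin receptor Cd163 stood at 9.27, 4.32, 3.52 and 4.34 RPKM in the peritoneal libraries and at 151, 185, 235 and 188 RPKM in the heart libraries. For Lyve1, Mrc1, Folr2 and Cd163 alike, library 2 was the highest peritoneal library. The fractalkine receptor Cx3cr1 (-5.33), Fcrls (-5.66) and the lectin Mgl2 (-4.21) fell. The 3 that rose were leukotriene C4 synthase Ltc4s (2.55 ± 0.19), the chemokine Pf4 (1.54 ± 0.26) and the cell surface protein Ninj1 (1.01 ± 0.21). Ccl24 (0.32) and Snx2 (0.17) were among those not called.

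MHC class II presentation was lower in 10 of 16 genes and higher in 3. The heart libraries alone carried 2 of the 16 over the minimum, Cd83 among them. H2-Aa stood at 83.9, 249, 30.4 and 54.6 RPKM in the peritoneal libraries and at 1433, 2101, 2267 and 3538 RPKM in the heart libraries. H2-Eb1 stood at 52.6, 125, 17.2 and 33.6 RPKM in the peritoneal libraries and at 1035, 1443, 1433 and 2550.1 RPKM in the heart libraries. Both groups were broad, with peritoneal library 3 the highest and library 4 the lowest of its group and heart library 5 the highest of its own, but they did not overlap. Cd83, which stabilises class II molecules at the surface, stood at 0.889, 0.488, 0.281 and 0.404 RPKM in the peritoneal libraries and at 139, 139, 376 and 147 RPKM in the heart libraries. The lysosomal thiol reductase Ifi30 (0.90 ± 0.22) and the costimulatory receptor Cd40 (0.78 ± 0.22) rose. Class I loading had 7 of 17 higher and none lower, against 49.0% higher and 14.4% lower over all genes. Among the 7 were the chaperones Pdia3 (1.34) and Canx (1.02) and the peptide trimmer Erap1 (1.15). At an equal RPKM total class I loading had 5 higher and 3 lower.

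Chemokine ligands were lower for 14 of 20 tested and higher for 4, with a median of -3.02. For 7 of them the heart libraries alone carried the gene over the minimum. Ccl2, the ligand of Ccr2 on monocytes, stood at 1.02, 0.280, 0.374 and 0.307 RPKM in the peritoneal libraries and at 163, 225, 398 and 269.7 RPKM in the heart libraries. Ccl12 stood at 0.0438, 0, 0.0511 and 0 RPKM in the peritoneal libraries and at 55.3, 109, 111 and 100.8 RPKM in the heart libraries. Ccl4, a chemokine that attracts monocytes and T cells, stood at 0.997, 0.155, 0.705 and 0.515 RPKM in the peritoneal libraries and at 138, 166, 298 and 281 RPKM in the heart libraries. No peritoneal library came near the heart libraries for any of these. Cxcl13, the B cell attractant of serous cavities, went up, from 15.6, 22.9, 30.2 and 43.1 RPKM in heart to 164, 265, 189.6 and 193 RPKM in peritoneal libraries (2.91 ± 0.31). Ccl6 (0.92), Pf4 and Cxcl12 (1.34) also rose.

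Receptors for these ligands followed no 1 direction, with 5 of 14 higher and 8 lower. Ccr1 (2.39 ± 0.20), the formyl peptide receptor Fpr1 (2.28 ± 0.24) and the chemerin receptor Cmklr1 (1.57 ± 0.19) rose. Ackr3, a scavenging receptor for Cxcl12, rose by 2.79 ± 0.41, although heart library 2 at 5.06 RPKM stood apart from 0.398 to 1.11 in the other heart libraries. Cx3cr1 stood at 1.35, 0.583, 3.03 and 1.69 RPKM in the peritoneal libraries and at 69.1, 61.7, 107 and 86.9 RPKM in the heart libraries. Cxcr4, the signalling receptor for Cxcl12, stood at 2.50, 3.15, 1.64 and 2.76 RPKM in the peritoneal libraries and at 77.3, 77.4, 154 and 132 RPKM in the heart libraries. Both were higher in the heart group, and library 4 was the highest heart library for each.

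Cytokines and their receptors were lower for 19 of 31 and higher for 5, with 3 higher under each of the 3 other scalings. Il1b stood at 0.401, 0.259, 0.0609 and 0.206 RPKM in the peritoneal libraries and at 122, 150.3, 334 and 248 RPKM in the heart libraries. Tnf stood at 0.881, 0.459, 0.795 and 0.318 RPKM in the peritoneal libraries and at 59.9, 54.1, 89.7 and 83.4 RPKM in the heart libraries. Il10, which dampens inflammation, stood at 0.342, 0.0785, 0.356 and 0.189 RPKM in the peritoneal libraries and at 6.93, 9.35, 11.4 and 10.1 RPKM in the heart libraries. Of the 31, 4 passed the minimum through the heart libraries alone and 1 through the peritoneal libraries alone. Il1b, Tnf and Il10 passed through the heart libraries alone, so their direction was fixed by the minimum. The receptor chain Il17ra (1.37 ± 0.16) and the shared chain Il6st (0.93 ± 0.19) rose.

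Immediate early genes are switched on within minutes of a stimulus, without new protein, and include the AP-1 subunits of the Fos and Jun families, the Egr zinc finger factors and Atf3. Of 29 tested, 26 fell and 1 rose, with a median of -3.63. For 5 of the 29 the heart libraries alone carried the gene over the minimum. Fosb stood at 0.236, 0.206, 0.0725 and 0.270 RPKM in the peritoneal libraries and at 369, 429, 589 and 245 RPKM in the heart libraries. Fos stood at 5.95, 8.28, 2.57 and 7.39 RPKM in the peritoneal libraries and at 1543, 1585, 2465 and 1826 RPKM in the heart libraries. Atf3 stood at 14.2, 12.4, 5.39 and 10.8 RPKM in the peritoneal libraries and at 641, 520.3, 1092 and 645 RPKM in the heart libraries. Heart library 4 was the highest of its group for these 3, and no peritoneal library exceeded 14.2 RPKM. Jun (-6.98 ± 0.23), Egr1 (-7.68 ± 0.32) and Junb (-3.55 ± 0.21) fell as well. Myc, which is also a growth regulator, was the 1 that rose (1.002 ± 0.17). In pericardial libraries the summed RPKM of the list was 1110.4 to 1666 and in pleural libraries 1041 to 1141, against 524 to 1026 in peritoneal and 8342 to 12589 in heart libraries. The 3 cavity populations were all on the low side, and the part of harvest in this was not tested.

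Since these genes moved together, their promoters are shown for 4 of those that fell. Each line gives the 250 bases before the RefSeq start site, 5′ to 3′ on the gene's own strand, from RefSeq sequence of GRCm38.p6, the assembly that mm10 names. Capitals mark TGACG or its reverse complement CGTCA, the core of the cAMP response element, which is the site of the factor CREB.
Fosb, chr7:19310046-19310295, minus strand: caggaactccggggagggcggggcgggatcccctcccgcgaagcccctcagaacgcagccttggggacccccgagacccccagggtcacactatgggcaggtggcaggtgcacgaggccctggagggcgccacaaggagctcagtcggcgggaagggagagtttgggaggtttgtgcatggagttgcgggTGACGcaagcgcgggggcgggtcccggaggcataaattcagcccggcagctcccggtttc
Fos, chr12:85473640-85473889, plus strand: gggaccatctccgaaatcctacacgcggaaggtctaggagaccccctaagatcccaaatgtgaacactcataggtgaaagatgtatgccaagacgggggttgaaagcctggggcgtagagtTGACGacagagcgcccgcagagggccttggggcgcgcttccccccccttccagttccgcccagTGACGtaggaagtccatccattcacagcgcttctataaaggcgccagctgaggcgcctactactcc
Atf3, chr1:191183334-191183583, minus strand: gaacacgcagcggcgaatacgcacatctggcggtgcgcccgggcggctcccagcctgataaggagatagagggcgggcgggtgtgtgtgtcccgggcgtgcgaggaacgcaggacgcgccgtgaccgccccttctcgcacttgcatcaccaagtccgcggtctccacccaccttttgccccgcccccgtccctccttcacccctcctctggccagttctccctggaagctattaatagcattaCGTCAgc
Junb, chr8:84978749-84978998, minus strand: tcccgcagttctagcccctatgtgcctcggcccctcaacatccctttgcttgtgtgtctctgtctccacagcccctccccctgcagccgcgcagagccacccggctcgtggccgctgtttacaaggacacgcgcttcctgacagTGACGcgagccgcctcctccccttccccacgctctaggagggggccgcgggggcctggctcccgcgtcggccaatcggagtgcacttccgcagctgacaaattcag
Fos held 2 matches in this stretch and the other 3 genes 1 each. These genes were picked because they fell and held a match. Over windows from 250 bases before to 50 after the start, on both strands, TGACG was found for 17 of 25 immediate early genes with a promoter (68.0%), for 36.2% of 8652 tested genes and for 23.0% of 27025 genes with a promoter. The full palindrome TGACGTCA, which contains TGACG on each strand, was found for 3 of the 25 (12%), for 3.70% of tested genes and for 2.03% of all. Among heat shock genes TGACG was found for 11 of 19 (57.9%), and among cavity identity genes for 4 of 23 (17.4%). The GATA motif AGATAA was found for 3 of 23 cavity identity genes (13%), 7.52% of tested and 12.7% of all genes. A match is a description of letters and shows no binding.

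Genes that feed back on the same signalling pathways were lower for 23 of 30 and higher for 2, and 5 of the 30 passed through the heart libraries alone. Gadd45b, a stress sensor of the p38 pathway, stood at 0.965, 0.648, 0.195 and 0.562 RPKM in the peritoneal libraries and at 118, 94.9, 165 and 109.7 RPKM in the heart libraries. Ppp1r15a, which restarts translation after stress, stood at 5.82, 4.69, 3.12 and 4.26 RPKM in the peritoneal libraries and at 286, 224, 355 and 311 RPKM in the heart libraries. Gadd45g (-5.17) fell with Gadd45b, while Gadd45a, the third member of that family, rose by 1.24 ± 0.21. The promoter share with TGACG was 33.3% for this list (9 of 27), close to that of all tested genes.

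Heat shock proteins were lower for 12 of 24 and higher for 5, with 3 higher under each of the 3 other scalings. The inducible Hsp70 gene Hspa1a stood at 6.62, 7.42, 2.27 and 5.51 RPKM in the peritoneal libraries and at 1929.6, 1614, 1901 and 1892 RPKM in the heart libraries. Its near-identical copy Hspa1b gave 12.5, 25.2, 3.47 and 8.61 RPKM and 1899.9, 1614, 1782 and 1940.2 RPKM, and how reads were split between the 2 copies is uncertain. The small heat shock protein Hspb1 (-5.95 ± 0.41) and the co-chaperone Dnajb1 (-4.00 ± 0.21) fell. The constitutive Hspa8 stood at 732, 1140.0, 373 and 649 RPKM in the peritoneal libraries and at 1240.1, 1288, 1592 and 1539 RPKM in the heart libraries and fell by 1.07 on the log2 scale. The mitochondrial Hspa9 (0.95 ± 0.17) and Hspa4 (0.83 ± 0.17) rose. The rises in this list were all below 1 on the log2 scale.

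**Figure D4:**
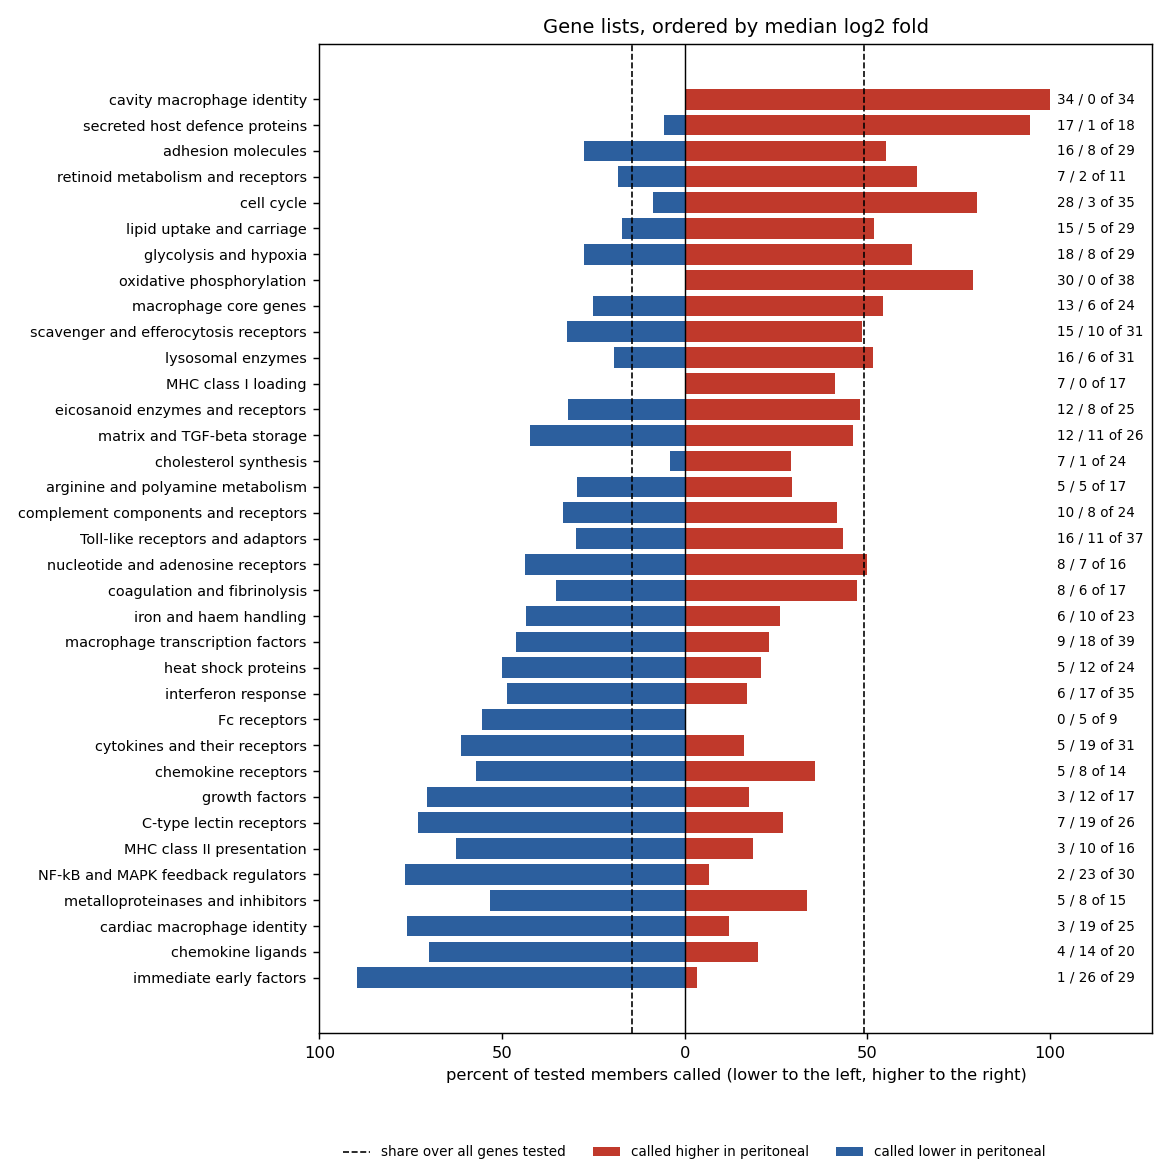
Share of tested members called higher (right) and lower (left) in peritoneal than in heart macrophages for 35 gene lists ordered by median log2 difference, with the counts beside each bar and dashed lines at 49.0% and 14.4%, the shares over all genes. Cavity identity and secreted host defence genes stand at the higher end, and immediate early factors, chemokine ligands and cardiac identity genes at the lower end.

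Of 31 scavenger and efferocytosis genes 15 rose, a share close to the 49.0% of all genes, and 10 fell, against 14.4% of all genes. Marco, which binds bacteria and particles, stood at 279.6, 191.9, 172 and 183 RPKM in the peritoneal libraries and at 0.997, 1.14, 1.196 and 0.838 RPKM in the heart libraries. Msr1, the class A scavenger receptor, rose by 2.57 ± 0.20. Heart cells held more of the bridging ligand Gas6, of Itgb5 and of Cd163, while Mertk, the TAM receptor of efferocytosis, stood at 23.7, 33.8, 18.1 and 25.3 RPKM in the peritoneal libraries and at 14.6, 19.2, 24.7 and 19.4 RPKM in the heart libraries and was not called (0.36 ± 0.19). C-type lectin receptors were lower for 19 of 26 and higher for 7. Clec4d and Clec4e, which bind mycobacterial glycolipids, rose by 4.49 ± 0.26 and 3.97 ± 0.22. Clec4e stood at 49.4, 55.1, 30.9 and 46.6 RPKM in the peritoneal libraries and at 2.52, 1.55, 4.27 and 1.80 RPKM in the heart libraries. Clec12a (-4.38) and Mgl2 fell. Cd209f fell by 4.37 ± 0.65, with peritoneal library 2 at 8.18 RPKM and the other 3 at most at 0.287. Fc receptors held 5 of 9 lower and none higher, with 8 lower at an equal RPKM total and with quantile scaling. The 5 included Fcgrt (-1.83), which recycles immunoglobulin G, Fcgr1 (-1.59) and the inhibitory Fcgr2b (-1.28).

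Among innate sensors the inflammasome genes Naip1 (4.86 ± 0.15), Naip6 (1.73 ± 0.14) and the adaptor Pycard (3.65 ± 0.22) rose. Naip1 senses bacterial secretion system needles and stood at 18.2, 24.5, 17.0 and 18.6 RPKM in the peritoneal libraries and at 0.205, 0.159, 0.148 and 0.221 RPKM in the heart libraries. Naip genes are close copies of each other, so the division of reads among them is uncertain. Tlr13 (1.46), which senses bacterial ribosomal RNA in mice, rose, and Tlr9 (-3.07), the flagellin receptor Tlr5 (-2.99), Tlr2 (-1.85) and Cd14 (-1.53) fell. Of 37 genes of the list, 1 (Naip1) passed the minimum through the peritoneal libraries alone and 2 through the heart libraries alone. In all 16 rose and 11 fell, beside 49.0% and 14.4% of all genes. With libraries at an equal RPKM total 11 rose and 17 fell, and the median turned from 0.23 to -0.16, with -0.07 under median-ratio and -0.11 under quantile scaling.

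Receptors for extracellular nucleotides were divided almost evenly, 8 higher and 7 lower of 16, beside 49.0% and 14.4% of all genes. Of the 16, 4 passed through the peritoneal libraries alone, Nt5e among them, and 2 through the heart libraries alone, Gpr34 among them. Nt5e (CD73), which makes adenosine from AMP, stood at 32.6, 48.5, 22.9 and 38.8 RPKM in the peritoneal libraries and at 0.752, 0.401, 0.374 and 0.515 RPKM in the heart libraries. P2ry2 (4.08 ± 0.15), a receptor for ATP and UTP, and the channel P2rx1 (3.38 ± 0.26) rose. Gpr34, a receptor for lysophosphatidylserine, stood at 0.198, 0.0756, 0.130 and 0.0978 RPKM in the peritoneal libraries and at 34.7, 34.7, 67.3 and 49.4 RPKM in the heart libraries. The UDP receptor P2ry6 (-4.98 ± 0.21) and the ADP receptors P2ry12 (-3.07 ± 0.19) and P2ry13 (-4.72 ± 0.17) fell, while the ADP receptor P2ry1 rose by 2.003. The median of 0.13 was below that of all genes and turned to -0.23, -0.14 and -0.10 at an equal RPKM total and with median-ratio and quantile scaling.

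Iron and haem genes included 6 of 23 higher and 10 lower, against 4 higher and 14 to 15 lower under the 3 other scalings. The iron exporter ferroportin, Slc40a1, stood at 0.0417, 0, 0.0162 and 0.0183 RPKM in the peritoneal libraries and at 15.9, 14.6, 21.9 and 23.4 RPKM in the heart libraries. Haem oxygenase Hmox1, which degrades haem, stood at 79.4, 69.4, 37.1 and 56.7 RPKM in the peritoneal libraries and at 382, 326, 510.3 and 408 RPKM in the heart libraries. The transferrin receptor Tfrc (-1.74 ± 0.18) fell, and transferrin itself (Trf, 1.06 ± 0.19) rose. Cd163, Spic, Hmox1 and Slc40a1, which serve the recycling of red cell iron in splenic and hepatic macrophages, were thus all lower in peritoneal cells. Of these, Spic and Slc40a1 passed the minimum through the heart libraries alone, so their direction was fixed.

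Growth factors were lower for 12 of 17 and higher for 3. Pdgfb, the ligand of mural cell PDGF receptors, stood at 1.51, 0.932, 0.508 and 1.13 RPKM in the peritoneal libraries and at 17.7, 20.7, 24.5 and 23.5 RPKM in the heart libraries. Pdgfc (-3.56), the EGF family member Areg (-2.61) and Gdf15 (-3.05) fell, as did Igf1 (-1.36 ± 0.20). Interferon response genes fell for 17 of 35 and rose for 6, whereas 23 to 24 fell and 3 rose under the 3 other scalings. Cxcl10 (-4.89), Ifit3 (-3.86), Ifit2 (-2.71) and Irf1 (-2.30) fell, whereas the guanylate-binding proteins Gbp3 (1.51 ± 0.24) and Gbp5 (1.11 ± 0.28) rose. Peritoneal library 3 was the highest of its group for Gbp3 (38.0, 55.9, 29.8 and 28.9 RPKM) and for Ifit3 (0.526, 2.09, 0.352 and 0.368 RPKM).

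Oxidative phosphorylation had 30 of 38 higher and none lower, with a median of 0.63. An equal RPKM total left 17 higher, median-ratio scaling 17 and quantile normalization 22, with none lower under any of them. The complex I subunit Ndufa1 rose most (1.83 ± 0.20). Glycolysis and hypoxia genes rose for 18 of 29 and fell for 8. Pfkl, the liver form of phosphofructokinase, stood at 80.4, 86.3, 50.2 and 64.4 RPKM in the peritoneal libraries and at 7.02, 7.95, 7.47 and 10.6 RPKM in the heart libraries. The hexose transporter Slc2a6 (3.51 ± 0.21) and the lactate exporter Slc16a3 (2.44 ± 0.18) rose, and Pfkfb4 (-2.50 ± 0.14) and the glucose transporter Slc2a3 (-1.77 ± 0.16) fell. Eno3, the muscle enolase, fell by 1.75 on the log2 scale and was lowest among heart libraries in library 4 (11.4, 10.5, 6.03 and 12.6 RPKM), as were Myl2 and Mb. Lysosomal enzymes were higher for 16 of 31 and lower for 6, shares close to those of all genes (49.0% and 14.4%). With RPKM totals set equal 11 rose and 11 fell. Lyz2, lysozyme, stood at 29516, 31151, 18644 and 24212 RPKM in the peritoneal libraries and at 3719.8, 4434, 5763 and 6961 RPKM in the heart libraries. The protease Ctsd (2.43) and the galactosidase Glb1 (2.55) rose and cathepsin C (Ctsc, -2.51) fell.

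Of 35 cell cycle genes 28 rose and 3 fell, against 26 and 5 at an equal RPKM total. Ccnd1 (2.01 ± 0.21) and Ccnd3 (1.83 ± 0.19) rose while Ccnd2 (-1.84 ± 0.21), the remaining D-type cyclin, fell. Mki67, a marker of cycling cells, stood at 23.3, 19.98, 12.1 and 18.8 RPKM in the peritoneal libraries and at 6.18, 6.58, 4.40 and 4.88 RPKM in the heart libraries. The replication enzyme Rrm2 rose by 1.77 ± 0.19. Cdkn1a, the cycle inhibitor p21, stood at 38.7, 47.0, 19.4 and 35.1 RPKM in the peritoneal libraries and at 121, 143, 179.9 and 129.8 RPKM in the heart libraries and so was higher in heart cells. Of 24 macrophage core genes 13 rose, a share near the 49.0% of all genes, and 6 fell, against 14.4% of all genes. Their median log2 difference of 0.59 was 0.18 at an equal RPKM total. Csf1r, the receptor on which tissue macrophages depend, stood at 257, 266, 173 and 226 RPKM in the peritoneal libraries and at 448, 432, 599 and 558 RPKM in the heart libraries (-1.15 ± 0.19), and Adgre1, which encodes F4/80, at 535, 681, 420.5 and 507 RPKM in the peritoneal libraries and at 154, 185, 248 and 235 RPKM in the heart libraries (1.39 ± 0.20).

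Whether any of these differences belonged to peritoneal cells rather than to cavity cells was tested against all 3 other populations at once, by the largest of the 3 limma p-values. Of 10920 genes 14 were higher (0.128%) and 13 lower (0.119%) in peritoneal cells than in heart, pericardial and pleural cells together. Other scalings gave more: 40 higher and 26 lower when RPKM totals were set equal, 19 and 25 by median ratios, 23 and 33 by quantiles. The higher count fell to 9 without peritoneal library 2 and to 8 without peritoneal library 3. The peritoneal group differed from pericardial cells in 107 genes and from pleural cells in 69, at an adjusted p under 0.05. Arg1 stood at 9.06, 17.2, 15.7 and 8.73 RPKM in pericardial and 8.596, 9.92, 12.5 and 8.52 RPKM in pleural libraries, below each peritoneal library, and the smallest of its 3 log2 differences was 3.72 (adjusted p = 7.64e-10). Marco stood at 53.3, 76.7, 44.5 and 41.6 RPKM in pericardial and 76.8, 77.4, 76.8 and 64.0 RPKM in pleural libraries (smallest difference 1.46, adjusted p = 0.000328). Adam8 followed, at 26.4, 33.4, 25.0 and 23.1 RPKM and 22.9, 25.2, 23.8 and 26.5 RPKM (1.31, adjusted p = 0.000121). In Marco and Adam8 the cavity populations were therefore all high and the peritoneal one highest.

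Vsig4, the complement receptor of tissue macrophages, stood at 161, 186, 153 and 169 RPKM in the peritoneal libraries and at 58.6, 55.3, 78.5 and 103 RPKM in the heart libraries. In pericardial libraries it was 71.2, 62.3, 81.6 and 57.4 RPKM and in pleural libraries 65.3, 38.0, 90.3 and 58.0 RPKM (smallest difference 1.22, adjusted p = 0.02). That call was lost under each of the 3 other scalings, with adjusted p of 0.0883, 0.0812 and 0.0738 at an equal RPKM total and with median-ratio and quantile scaling. It was also lost without peritoneal library 2, 3 or 5 or heart library 2 or 3 (adjusted p of 0.0509, 0.0726, 0.0674, 0.0798 and 0.0895). Ubash3a, a phosphatase that damps T cell receptor signalling, was low throughout but highest in peritoneal cells, at 3.80, 2.73, 3.09 and 3.71 RPKM against at most 0.924 RPKM elsewhere. The other higher genes of largest difference were the podoplanin receptor Clec1b (1.29), Ankrd37 (1.23), Stard13 (1.13), She (1.11) and the homogentisate oxidase Hgd (1.0). Clec1b was no longer set apart with median-ratio scaling (adjusted p = 0.0771), quantile scaling (0.109) or robust variance (0.153), nor without peritoneal library 2, 3 or 4 (0.168, 0.132 and 0.159) or heart library 2, 3 or 4 (0.0629, 0.052 and 0.0715). Hgd lost its call without peritoneal library 2, 3 or 5 (0.138, 0.132 and 0.0519), both lost it at a pseudocount of 0.1 (Clec1b 0.105, Hgd 0.198), and Ankrd37 lost it with no filter (0.0602). Cd93, Gramd1b, Htr2a and Bach2os completed the 14 and are named here after their values were seen.

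**Figure D5:**
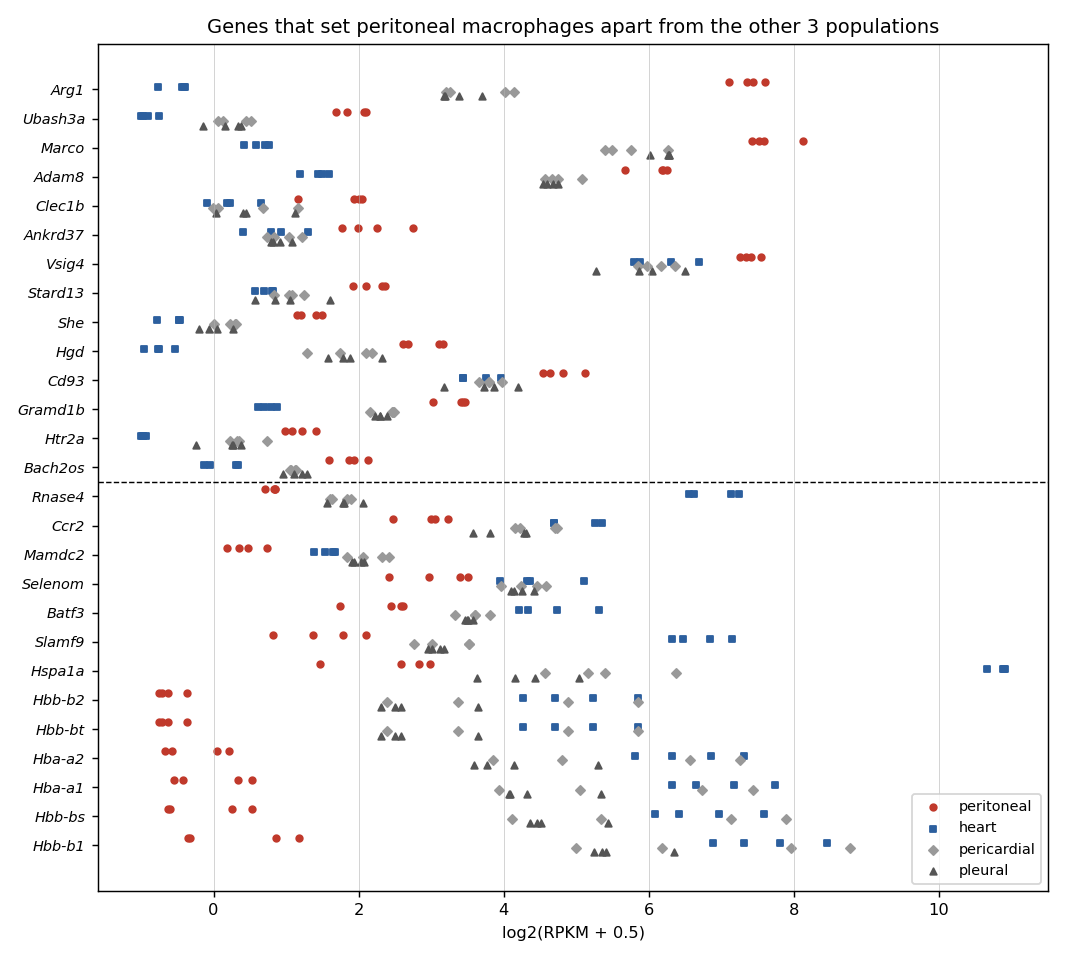
Levels as log2(RPKM + 0.5) of the 27 genes that set peritoneal macrophages apart, 14 higher (above the dashed line) and 13 lower, with 1 point per library for each of the 4 populations. Arg1 shows the widest gap among the higher genes and the globin genes among the lower ones.

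On the lower side 6 globin genes led. They form 3 near-identical pairs (Hbb-b1 with Hbb-bs, Hbb-b2 with Hbb-bt, Hba-a1 with Hba-a2) whose reads cannot be divided with certainty. Hbb-b1 stood at 1.31, 0.300, 0.281 and 1.77 RPKM in the peritoneal libraries and at 159, 223, 118 and 352 RPKM in the heart libraries. In pericardial libraries it was 438, 248, 71.9 and 31.5 RPKM and in pleural libraries 42.1, 40.5, 37.6 and 80.6 RPKM, so the peritoneal libraries were below all others (smallest difference -5.25, adjusted p = 7.73e-05). Macrophages make little globin, and the summed level of 11 erythroid markers was 1.13 to 5.12 RPKM in peritoneal against 359.8 to 1037 in heart libraries. The remaining 7, named after their values were seen, were Hspa1a (-1.85), the receptor Slamf9 (-1.55), Batf3 (-1.16), Selenom (-1.15), Mamdc2 (-1.12), the monocyte chemokine receptor Ccr2 (-1.06) and the ribonuclease Rnase4 (-0.93). Ccr2 stood at 7.46, 7.79, 5.05 and 8.94 RPKM in the peritoneal libraries and at 25.3, 25.3, 40.4 and 37.9 RPKM in the heart libraries, and at 17.4, 25.6, 26.2 and 18.2 RPKM in pericardial and 11.5, 13.6, 19.3 and 18.8 RPKM in pleural libraries.

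Markers of other cells moved with the groups. In the cardiomyocyte, fibroblast, erythroid and mural cell lists the minimum RPKM itself fixed the direction of most members, so the sums over all listed markers are given beside the counts. Of 16 cardiomyocyte markers tested 14 were lower in peritoneal cells and 2 higher, but 13 had passed through the heart libraries alone and 2 through the peritoneal libraries alone. The summed level of the 18 listed was 6.08 to 7.13 RPKM in peritoneal and 342 to 733 RPKM in heart libraries, and Myl3 and Csrp3 were at 0 in each peritoneal library. The 2 higher were Myh7 (2.09 ± 0.20) and Ryr2 (1.60 ± 0.16), at 2.94, 2.44, 2.64 and 2.26 RPKM and 2.37, 2.104, 2.06 and 2.30 RPKM in peritoneal libraries, although the partner genes of the sarcomere were not. Fibroblast markers were lower for 8 of 8, which had all passed through the heart libraries alone, with sums of 0.836 to 1.35 RPKM and 194 to 745 RPKM, led by gelsolin Gsn (-7.33) and decorin Dcn (-6.65). Erythroid markers were lower for 7 of 7, of which 6 had passed through the heart libraries alone. Mural cell markers were lower for 2 of 2, both carried over the minimum by the heart libraries alone, with sums of 1.01 to 2.08 RPKM and 7.24 to 21.7 RPKM.

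Immune cell markers were less one-sided. Monocyte markers were higher for 6 of 12 and lower for 5, with sums of 192.5 to 322 RPKM and 575 to 856 RPKM, most of the latter from F13a1 and Nr4a1. Ly6c2, the defining marker of classical monocytes, had a mean of 0.455 RPKM in peritoneal and 0.279 RPKM in heart cells. Dendritic cell markers were lower for 5 of 6, with sums of 14.3 to 17.9 RPKM and 56.4 to 72.2 RPKM, and their defining genes Zbtb46 and Flt3 had means of 0.852 and 0.577 RPKM at most. These move with the MHC class II genes, and their part in that difference was not tested.

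B cell markers were higher for 4 of 7 and lower for 1 (Blnk), shares near the 49.0% and 14.4% of all genes. The peritoneal libraries alone carried 2 of the 7 over the minimum. Cd79a stood at 22.9, 11.3, 8.41 and 7.35 RPKM in the peritoneal libraries and at 4.58, 2.70, 0.416 and 0.511 RPKM in the heart libraries, highest in peritoneal library 2. T and NK cell markers had Cd2 higher and Cd4 lower, neutrophil markers 2 of 3 higher and eosinophil markers Alox15 higher, a gene that cavity macrophages share. Of 4 mast cell markers Hdc was higher. The mast cell proteases had near-equal means, 1.84 and 1.73 RPKM for Mcpt4 and 1.66 and 1.62 RPKM for Cma1 in peritoneal and heart cells. The 10 mast cell markers listed summed to 16.4 to 31.6 RPKM in peritoneal and 0.720 to 12.1 RPKM in heart libraries. At least 1 heart library thus lay well below both heart means. Endothelial and adipocyte sums followed Fabp4. The other endothelial marker tested, the water channel Aqp1, was lower in peritoneal cells (-3.53 ± 0.16), at 7.80, 5.50, 4.67 and 4.63 RPKM in heart libraries and at most 0.0336 in peritoneal ones, and passed through the heart libraries alone. The endothelial Cdh5 and Kdr had means of at most 0.858 RPKM, and Adipoq of at most 0.0786 RPKM. Of 2 Schwann cell and neuron markers Tubb3 was higher, and none of the 9 mesothelial markers reached the minimum. Without peritoneal library 4 and heart library 2, the libraries with the lowest RPKM total of their groups, limma called 5904 genes higher and 1612 lower, and 6802 of the 6931 calls were kept in direction.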

How the data were processed

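RNA of 16 libraries, 4 from each of 4 macrophage populations, was sequenced. Sorted cells went into TRIzol, and the library kit was NEBNext Ultra II, per the labels' protocols. The submitters' processing notes name Partek 7.18.0723, TopHat2 2.1.1, bcl2fastq 2.17.1 and the build mm10. The authors deposited RPKM per gene and library, the count of alignments per library, and a table of transcripts with group means of log2 RPKM, whose further columns (a ratio, a signed fold score, p-values and q-values, per the file headers) were not used. Not given in the sources used here are the read total behind RPKM, the gates of the sort, how hearts were dissociated and how strand and multiply mapped reads were treated.

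From the deposited RPKM, log2(RPKM + 0.5) was fitted with limma 3.58.1 in R 4.3.3 over all 16 libraries, with 1 mean per group, 12 residual degrees of freedom and a trended empirical Bayes variance. Two-sided moderated p-values were Benjamini-Hochberg adjusted over 10920 genes and called under 0.05. Genes set apart from the other 3 populations were found by an intersection-union test. A count test was not used, since RPKM are not counts. Errors of log2 differences are SE, and those of RPKM means are SD over 4 libraries. The fitting code was tested on simulated data.

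The genes, the 50 lists (35 of programmes and 15 of other cells) and the tests were chosen with earlier results of these data known, so lists are described by counts and medians and not tested as sets. Named genes were those of a rule: the 12 called genes of largest rise and fall whose libraries did not overlap, without predicted genes and small RNAs, up to 4 called members each way per list described, the 4 markers, and the 10 higher and 6 lower genes set apart. Some genes that the rule names are not reported here. Others were named after their values were seen, among them Odc1, C1qa, Mertk, Atf3, Junb, Hspa8, Tfrc, Igf1, Mki67, Csf1r, Adgre1 and the marker genes of other cells below the minimum. Alternatives were other pseudocounts (0.1 and 1), no filter, a mean RPKM of at least 5, 3 scalings, 2 groups alone, a replicate block, robust variance and left-out libraries. Promoter sequences came from RefSeq (GRCm38.p6), and gene positions from GENCODE annotation of the same build.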

Additional observations from a re-analysis of the deposited data

Results flagged for a closer look

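In 498 groups of 4 libraries checked (each tested gene named in the text, the summed marker lists and the RPKM total, in peritoneal and in heart cells), 45 held a library whose gap to its nearest neighbour exceeded Dixon's limit, where chance flags about 1 in 20 groups. All values here are RPKM. Heart library 2 was high for the summed fibroblast markers (745, others 194 to 243) and the summed mesothelial markers (2.66, others 0.426 to 0.485). It was also high for genes of matrix and stromal cells, with values of 146 for Dcn, 407 for Gsn, 43.2 for Sparc, 26.9 for Ltbp4, 1.94 for Ltbp1, 7.37 for Nid1, 14.2 for Timp3, 9.75 for Thbs1, 8.41 for Ptgis and 25.8 for Serping1. The same library was high for Clu (6.75, others 1.31 to 1.56) and Ackr3 (5.06, others 0.398 to 1.11).

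Heart library 4 was high for the summed monocyte markers (856, others 575 to 579.8), for Cd83 (376, others 139 to 147) and for F13a1 (509, others 354 to 362). It was high for the transcription factors Junb (1227), Klf4 (426), Nr4a1 (289) and Irf1 (124), and low for Arg1 (0.0891, others 0.238 to 0.260) and She (0.0840, others 0.221 to 0.223). Heart library 3 was low for Hspa1a (1614, others 1892 to 1930) and high for Cfb (12.01, others 4.45 to 5.0) and Ifit2 (8.04, others 3.62 to 4.27). Heart library 5 was high for Ccnd3 (23.2, others 16.5 to 17.1) and Fabp7 (2.79, others 0.924 to 1.08).

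Peritoneal library 2 was high for Folr2 (30.6, others 2.26 to 4.12), Cd163 (9.27, others 3.52 to 4.34), Cd209f (8.18, others 0.0427 to 0.287), Gas6 (2.85, others 0.422 to 0.704) and Ccl2 (1.02, others 0.280 to 0.374), and low for Rnase4 (1.13, others 1.29 to 1.30). Peritoneal library 3 was high for Cfb (144, others 53.6 to 64.0), Prtn3 (87.9, others 38.3 to 44.0), Ptges (5.36, others 4.0 to 4.12) and Ifit3 (2.09, others 0.352 to 0.526). Peritoneal library 4 was low for Adam8 (50.7, others 72.4 to 75.7), Klf4 (14.8, others 22.2 to 23.6), Gramd1b (7.62, others 10.2 to 10.5) and Fcrls (1.36, others 3.65 to 4.06). It was high for Serping1 (0.165, others 0.0340 to 0.0451) and was the 1 peritoneal library with a value above 0 for Myl2 (0.0413) and Mb (0.0219).

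The 27 genes set apart in peritoneal cells met the test of the difference from heart, pericardial and pleural cells at once (the intersection-union test). The smallest log2 difference from another population was 3.72 for Arg1, 1.64 for Ubash3a, 1.46 for Marco, 1.31 for Adam8, 1.29 for Clec1b, 1.23 for Ankrd37, 1.22 for Vsig4, 1.13 for Stard13, 1.11 for She, 1.0 for Hgd, 0.97 for Cd93, 0.94 for Gramd1b, 0.77 for Htr2a and 0.74 for Bach2os. Among the genes lower in peritoneal cells it was -0.93 for Rnase4, -1.06 for Ccr2, -1.12 for Mamdc2, -1.15 for Selenom, -1.16 for Batf3, -1.55 for Slamf9 and -1.85 for Hspa1a. For the globin genes it was -5.25 for Hbb-b1, -4.80 for Hbb-bs, -4.48 for Hba-a1, -4.44 for Hba-a2 and -3.37 for Hbb-b2 and Hbb-bt, which have identical values.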

How the results depend on the processing

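The main counts were 5354 genes higher and 1577 lower than heart, and 14 and 13 set apart. They moved by over 1.5 times with no filter (3026 lower, 7 set apart lower), at a mean RPKM of at least 5 (3489 higher, 850 lower, 7 set apart higher), at an equal RPKM total (3386 higher, 3061 lower, 40 set apart higher, 26 lower), with median-ratio scaling (2670 lower, 25 set apart lower) and with quantile normalization (2740 lower, 23 set apart higher, 33 lower). Leaving out 1 library gave 4518 to 6456 higher, 1486 to 1686 lower, 8 to 19 set apart higher and 9 to 15 lower. Set apart higher fell to 9 without peritoneal library 2 and to 8 without peritoneal library 3. Pseudocounts, robust variance and 2 groups alone kept both counts of the comparison with heart within 1.5 times. Of the 6931 calls, 4953 were kept in direction at an equal RPKM total, 5590 with median-ratio and 5839 with quantile scaling, and none turned. Among 274 named genes 9 changed call in some alternative (Stip1, Il18bp, Lyz2, Cd80, Idi1, Gbp2, Hgf, Ifitm3 and Acsl1) and none reversed; Lyz2 had adjusted p = 0.0911 with no filter. Clec1b, Hgd, Vsig4, Ankrd37, Hbb-b2 and Hbb-bt were set apart but lost that call in some alternative. With the replicate number as a block the counts were 5060, 1548, 13 and 12. Deviations of same-numbered libraries correlated at -0.323, -0.389, -0.383 and -0.435, and 0 of 4 peritoneal libraries matched best with their own number. These deviations carry the differences in RPKM total between libraries, so they cannot settle whether same-numbered libraries are paired. RPKM without read totals gives no counting interval, so low values carry an unknown counting error.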

Other observations

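The authors' deposited table of 42551 transcripts gives group means of log2 RPKM per transcript. Among 12964 transcripts at a mean of at least 1 in peritoneal or heart cells, 2270 genes had more than 1, and in 5 of these the transcripts differed by at least 1.5 in opposite directions. These genes were chosen after their values were seen, and the table allows no test between the 2 groups. In the authors' deposited table, transcripts of tropomyosin Tpm1, which muscle and other cells splice differently, ranged from -9.46 to 5.59 (peritoneal minus heart, log2). Those of the phosphatase Ptpre ranged from -3.24 to 5.78 in the authors' deposited table. In the authors' deposited table the range was -1.86 to 3.53 for the kinetochore gene Spc24, -1.96 to 2.89 for the kinase Sgk1 and -1.66 to 2.14 for the splicing factor Tra2b.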
